A study of Homo sapiens with 10 samples.

Results

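The genes described here are protein-coding genes whose span on the chromosome, from first to last base with introns included, was 400000 bp or more in a GRCh37 gene annotation (GENCODE release 44, lifted to that build). They were chosen by span, with the further condition of a value above 0 in all 10 libraries, and symbols that start with COL or RGS were left out. Of 500 protein-coding genes of this span, 100 were at 0 in at least 1 library and were not tested, and RGS6 and RGS7 were left out by symbol. The remaining 398 genes stood among 14477 genes above 0 in all 10 libraries, of which 14000 were protein-coding.

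The libraries were made from polyadenylated RNA of hTERT RPE-1 cells, a wild-type epithelial line from human retinal pigment epithelium that was immortalised with telomerase. All cells were kept for 48 h in 0.1% serum. In the first experiment cells received merbarone at 200 µM (3 libraries) or its solvent DMSO (3 libraries) for 30 min. In the second, cells received merbarone at 200 µM for 2 h (2 libraries) or were left untreated (2 libraries), so that drug and solvent cannot be told apart at 2 h. The labels do not say whether the libraries of a group came from separate cultures, and p-values then measure only the spread between these libraries. Values are RPKM, a gene's reads per kilobase of its length, scaled to the reads of the library. A gene is said to rise, fall or be called where its adjusted p in limma was under 0.05. RNA was taken from cells in bulk, so fewer cells that express a gene and less RNA per cell cannot be told apart.

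Very long genes consist almost wholly of introns, and a polymerase needs far more time to cross them than to cross a short gene. Transcription winds the DNA ahead of the polymerase and unwinds it behind. Topoisomerase II relieves this torsion by passing one duplex through a cut in another, and merbarone inhibits its catalytic cycle without trapping it on cut DNA. Many very long genes code for adhesion molecules, matrix proteins, synaptic and cytoskeletal scaffolds, and several lie at chromosomal fragile sites. The comparisons address whether the RNA levels of these genes were lower in cells given this inhibitor. RNA present before treatment and RNA made during it cannot be told apart in these levels. An unchanged level therefore does not show that transcription of a gene went on unchanged, and whether transcription was slowed was not tested.

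Depth ranged from 11962092 to 38240706 reads per library, and the very long genes took 1.61% to 2.17% of all reads. TOP2A and TOP2B, the genes of the drug's target enzymes, did not differ between treated and control libraries past the threshold (2 h log2 fold changes 0.04 and -0.03, adjusted p = 0.868 and 0.885 in limma). Of 15 markers of retinal pigment epithelium and epithelial keratins, 8 had a mean of 100 or more reads and 4 fewer than 10. RPE65, which defines the mature tissue, had a mean of 8.1 reads, RLBP1 10.7, and DCT was at 0 in all libraries. Between the experiments the control level of the marker BEST1 differed (2.58 RPKM in DMSO and 18.8 in untreated cells), and levels are therefore compared within an experiment.

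The span of the very long genes had a median of 557484 bp, of which a median of 1.76% was exon. Their exons had a median GC content of 43.3%, against 47.9% over all genes tested. On the same scale but per kilobase of summed exons, their median level was 1.61, against 5.57 over all genes tested, and it ranged from 0.0032 to 158. The median gene had a mean of 434 reads per library. In all, 129 genes had a mean of 1000 reads or more, 69 fewer than 50 and 20 fewer than 10. The deposited RPKM divides by a length that lay within 1% of the whole span for 323 of the 398, which makes their RPKM low: the median over the very long genes was 0.0255 to 0.0305 RPKM per library, at percentile 8.73 to 10.9 of all genes tested. For 28 genes the length used was under 400000 bp. Reads in introns were counted along with those in exons, so unspliced and mature RNA cannot be told apart in these values.

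Highest per kilobase of exon stood SPOCK1, a secreted proteoglycan gene (chr5:136310987-136934068, minus strand), with 158 on this scale. Its RPKM was 1.24 and 1.08 in untreated cells and 1.28 and 1.17 after merbarone for 2 h, so that the groups overlapped. Next among genes with a symbol came EDIL3, a secreted integrin ligand (88.7), and RPS6KA2, a ribosomal S6 kinase (85.3), with 2 h log2 fold changes of 0.20 and -0.22 (adjusted p = 0.251 and 0.144 in limma). Between SPOCK1 and EDIL3 lay ENSG00000255872 (116) and ENSG00000250349 (107), genes with no symbol here, which contain other genes that held 25% and 80.2% of their reads.

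None of the 5 longest genes was called in any comparison. PTPRD, a receptor tyrosine phosphatase gene of 2298757 bp, had a mean of 3.7 reads, too few to show a difference. DMD, the dystrophin gene of 2241933 bp (chrX:31115794-33357726, minus strand), had 0.0217 and 0.0217 RPKM in untreated cells and 0.0266 and 0.0269 after merbarone for 2 h. Both treated libraries lay above both controls, at a log2 fold change of 0.30 ± 0.12 (SE), which did not pass the threshold (adjusted p = 0.0979 in limma). DLG2, a synaptic scaffold gene of 2173325 bp with a mean of 20088 reads, had 0.280 and 0.371 RPKM untreated and 0.306 and 0.313 after merbarone, within the spread of the controls. CSMD1 and MACROD2 had 2 h log2 fold changes of -0.09 and -0.43 (adjusted p = 0.73 and 0.497).

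After 30 min of merbarone no very long gene was called at an adjusted p under 0.05 in limma (0 of 398, background 0.00691% of the 14477 genes tested). A fit blocked by replicate number called 13 genes of the whole table (0.0898%), none of them very long. Unadjusted p-values under 0.05 were found for 2 very long genes (background 0.387%), and for 12 with the block (background 3.44%). The median log2 fold change of the very long genes was 0.02, with quartiles of -0.03 and 0.07, and 244 of 398 lay above 0. In the pairs of libraries with the same replicate number, the median was 0.02, 0.05 and -0.01. All 3 treated libraries lay above all 3 controls for 6 very long genes (background 1.4%) and below them for 3 (background 1.19%). The 95% confidence interval of the fold change lay above a 1.5-fold decrease for 305 of the 398 genes and above a 2-fold decrease for 360. Over the 14477 genes tested these counts were 11733 and 13408. With the replicate block they were 356 and 382 for the very long genes, and 13310 and 13988 for all genes. These intervals, like those of the later time point, bound the change in RNA level, which includes RNA made before treatment. They set no bound on a change in transcription.

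KCNQ1, a potassium channel gene (chr11:2465884-2870335, plus strand), had the lowest unadjusted p at 30 min. It read 0.00677, 0.00677 and 0.00737 RPKM in DMSO and 0.00918, 0.015 and 0.0115 after merbarone, and the groups did not overlap. Its fold change of 0.74 ± 0.20 (log2, SE) had an adjusted p of 1.00 in limma. With the replicate block KCNQ1 had an adjusted p of 0.312 in limma. The other genes with the lowest unadjusted p had few reads. PTPRN2 had 21, 40 and 32 reads in DMSO and 13, 27 and 20 after merbarone (log2 -0.81 on RPKM), and RASGEF1B, FSTL5 and KCNH7 had means of 6.0, 8.1 and 1.9 reads.

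After 2 h of merbarone 62 of the 398 very long genes were called in limma (15.6%, background 12.3%): 55 rose (13.8%, background 7.13%) and 7 fell (1.76%, background 5.13%). The median log2 fold change was 0.14, against 0.01 over all genes tested, with quartiles of -0.08 and 0.40, and 279 of 398 genes lay above 0. The direction of the whole set depended on the scaling: after quantile normalization its median was -0.06 (all genes -0.03), with 26 higher calls (6.53%, background 6.31%) and 27 lower (6.78%, background 5.55%), so that the share of rises was near the background. After median scaling the median was 0.08 (all genes -0.05), with 51 higher (12.8%, background 6.57%) and 12 lower (3.02%, background 8.72%). All 55 called rises stayed above 0 and all 7 called falls below 0 under both scalings. These genes were picked for their change in the same data, so the kept sign is no separate test. The call itself was kept by 50 of the 55 rises after median scaling and by 26 after quantile normalization. All 7 falls kept it under both. Both treated libraries lay above both controls for 169 very long genes (background 28.8%) and below them for 68 (background 28.2%). The interval lay above a 1.5-fold decrease for 304 very long genes and above a 2-fold decrease for 355. Over the 14477 genes tested these counts were 11376 and 13334. After quantile normalization they were 250 and 333 for the very long genes, and 10950 and 13027 for all genes. The number of calls rests on single libraries and on the error model: it was 129 without untreated replicate 1 (32.4%, and 31.5% of all genes), 71 without untreated replicate 2 (17.8% and 18.2%), 10 without merbarone replicate 1 (2.51% and 2.89%), 16 without merbarone replicate 2 (4.02% and 3.20%), and 5 when the prior variance was not trended on reads (1.26% and 0.857%). In these fits the count moved together with that of all genes. The share of very long genes called was under that of all genes in other fits. It was 0.503% against 4.57% with a trend on RPKM, and 5.03% against 7.09% with a pseudocount of 0.01.

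Relative to the mean of the untreated libraries, the median very long gene lay at 0.07 and -0.07 (log2) in the untreated libraries themselves and at 0.18 and 0.11 in the treated ones. The treated libraries were therefore both above the controls, but untreated replicate 1 lay closer to them than replicate 2. Over the 4 pairs of a treated and an untreated library the median was 0.13, 0.05, 0.26 and 0.18, and between the untreated libraries themselves it was 0.14. Of the 55 genes that rose, 47 had more in untreated replicate 1 than in replicate 2, as had 279 of all 398 very long genes.

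**Figure D1:**
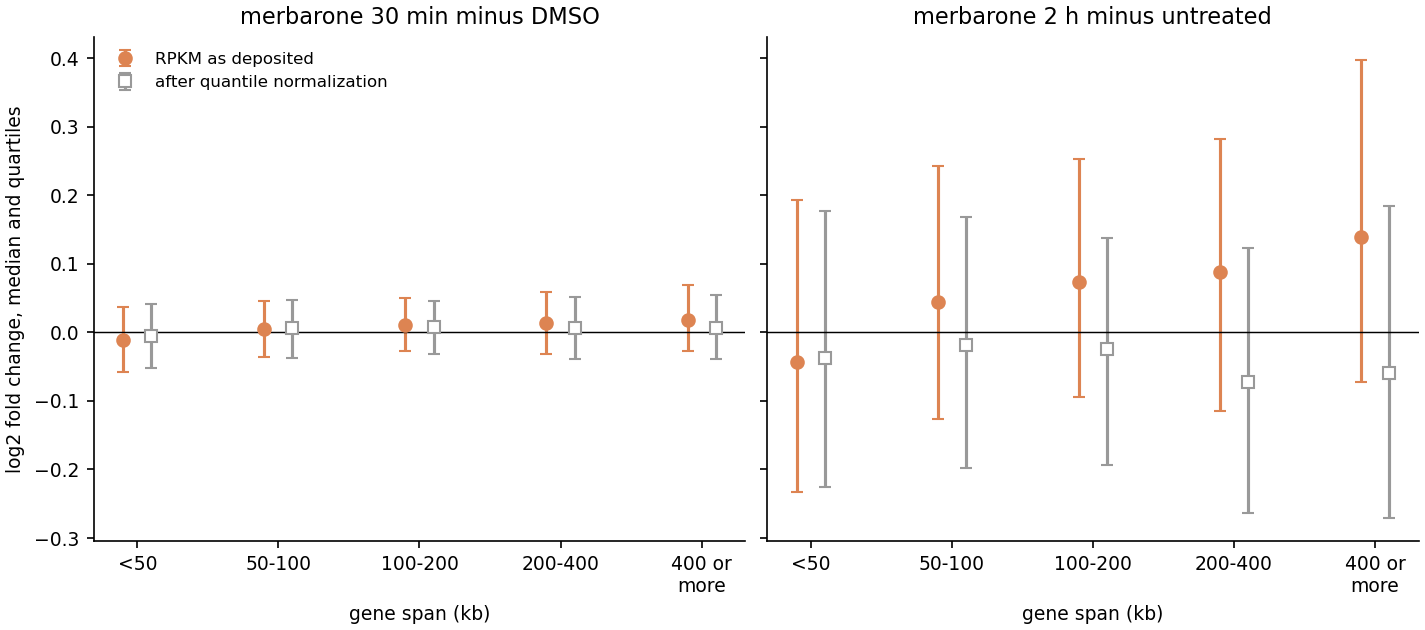
Median log2 fold change (points) with quartiles (bars) of protein-coding genes in 5 classes of gene span in kb, at 30 min (left) and 2 h (right), for RPKM as deposited (filled) and after quantile normalization (open). As deposited, the 2 h median goes from -0.04 in genes under 50 kb to 0.14 in genes of 400 kb or more, which lie at -0.06 after quantile normalization; at 30 min all medians lie between -0.01 and 0.02.

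By span class, the 2 h median log2 fold change of protein-coding genes was -0.04 under 50 kb (8526 genes), 0.04 at 50 to 100 kb, 0.07 at 100 to 200 kb, 0.09 at 200 to 400 kb (795 genes) and 0.14 at 400 kb or more (400 genes, with RGS6 and RGS7). The medians after quantile normalization, in the plot of fold change by span class, do not keep this order. In the neighbouring class of 200 to 400 kb 6.67% of genes rose and 2.26% fell. Among the very long genes themselves the median did not go up further with span: it was 0.17 at 400 to 500 kb (149 genes), 0.13 at 500 to 600 kb, 0.16 at 600 to 800 kb, 0.11 at 800 to 1000 kb and 0.10 at 1000 kb or more (54 genes, 9 higher and 3 lower). Spearman's correlation of the 2 h log2 fold change across the 398 genes, which share libraries, was -0.06 with span, 0.17 with the number of exons and -0.04 with exon GC content.

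Level and span go together. Other protein-coding genes of low RPKM also had positive 2 h medians: 0.28 in 512 genes under 0.01 RPKM, against 0.16 in the 119 very long genes of that level. At 0.03 to 0.1 RPKM the medians were both 0.18 (1053 other and 101 very long genes), and at 0.3 to 1 RPKM 0.05 (3260 genes) and 0.21 (23 very long genes). In classes by reads, the medians of other and very long genes were 0.37 and 0.19 under 10 reads, and 0.20 and 0.21 at 10 to 50. At 50 to 200 reads they were 0.11 and 0.13, and at 200 to 1000 reads 0.01 and 0.12. At 1000 or more reads they were -0.04 for 5747 other genes and 0.14 for 129 very long genes. After quantile normalization the very long genes (here with RGS6 and RGS7) lay at -0.09 under 0.01 RPKM, 0.11 at 0.3 to 1 RPKM and -0.0087 at 1000 or more reads. The parts of span, level and counted introns in these differences were not tested.

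**Figure D2:**
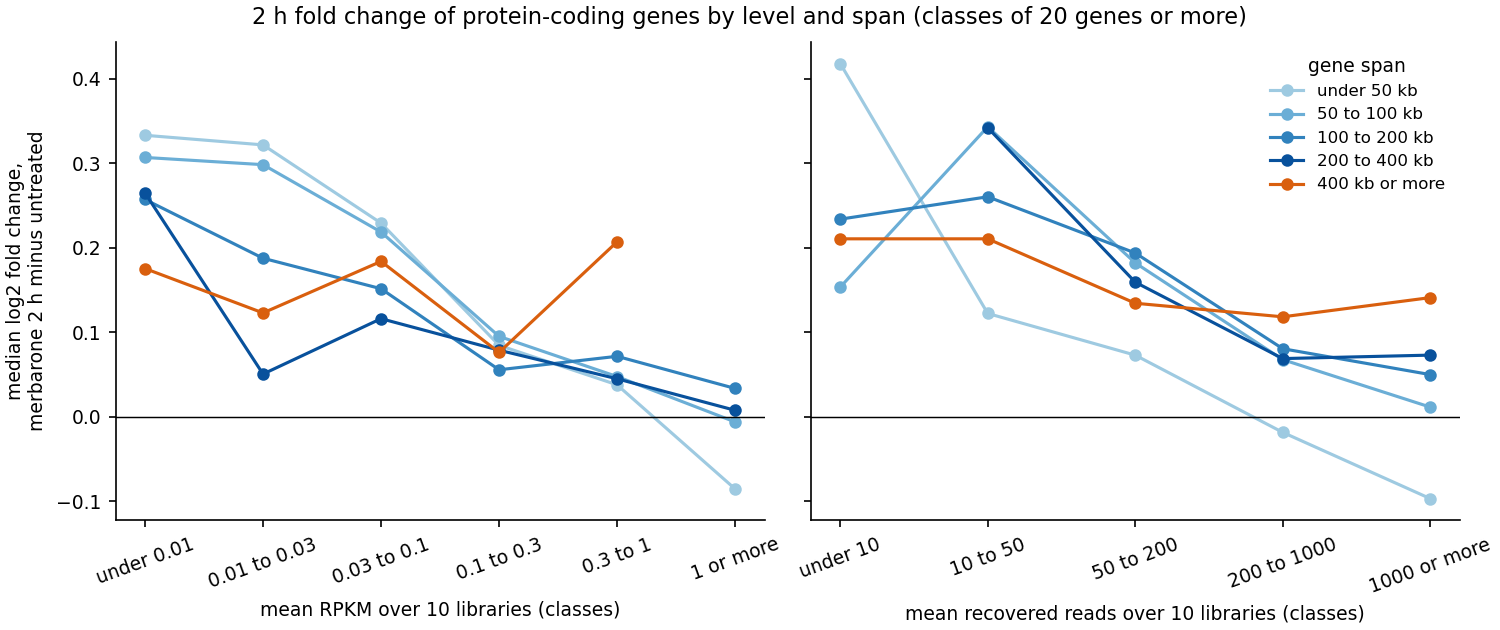
Median 2 h log2 fold change of protein-coding genes by class of mean RPKM (left) and of mean recovered reads (right); each line is a class of gene span, with the very long genes in orange, and only classes of 20 genes or more are drawn. At under 0.01 RPKM all span classes lie above 0, and the very long genes (0.18 with RGS6 and RGS7) lie lowest; at 1000 or more reads they lie highest (0.14), though at -0.09 and -0.0087 after quantile normalization.

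The genes that rose at 2 h had a median log2 fold change of 0.62, from 0.31 to 3.75, and 8 rose by 1 or more. The firmest was DLC1, which codes for a GTPase-activating protein (chr8:12940870-13462119, minus strand). Its RPKM was 0.474 and 0.443 in untreated cells and 0.982 and 0.944 after merbarone, with no overlap. This is a rise of 1.07 ± 0.10 (log2, SE; adjusted p = 8.11e-07 in limma). At 30 min DLC1 read 0.713, 0.304 and 0.382 in DMSO and 0.708, 0.349 and 0.368 after merbarone, so that replicate 1 was high in both groups and the treatments did not separate. KCNQ1 rose as well, from 0.00761 and 0.00744 to 0.0200 and 0.0214 RPKM (log2 1.46 ± 0.22, adjusted p = 0.000355). KCNQ1 was thus above its controls in every treated library of both experiments. The annotation places the antisense gene KCNQ1OT1 inside KCNQ1. KCNQ1OT1 was not analysed here, and since use of strand in the counting is not given in the sources used here, its reads cannot be told apart from those of KCNQ1.

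**Figure D3:**
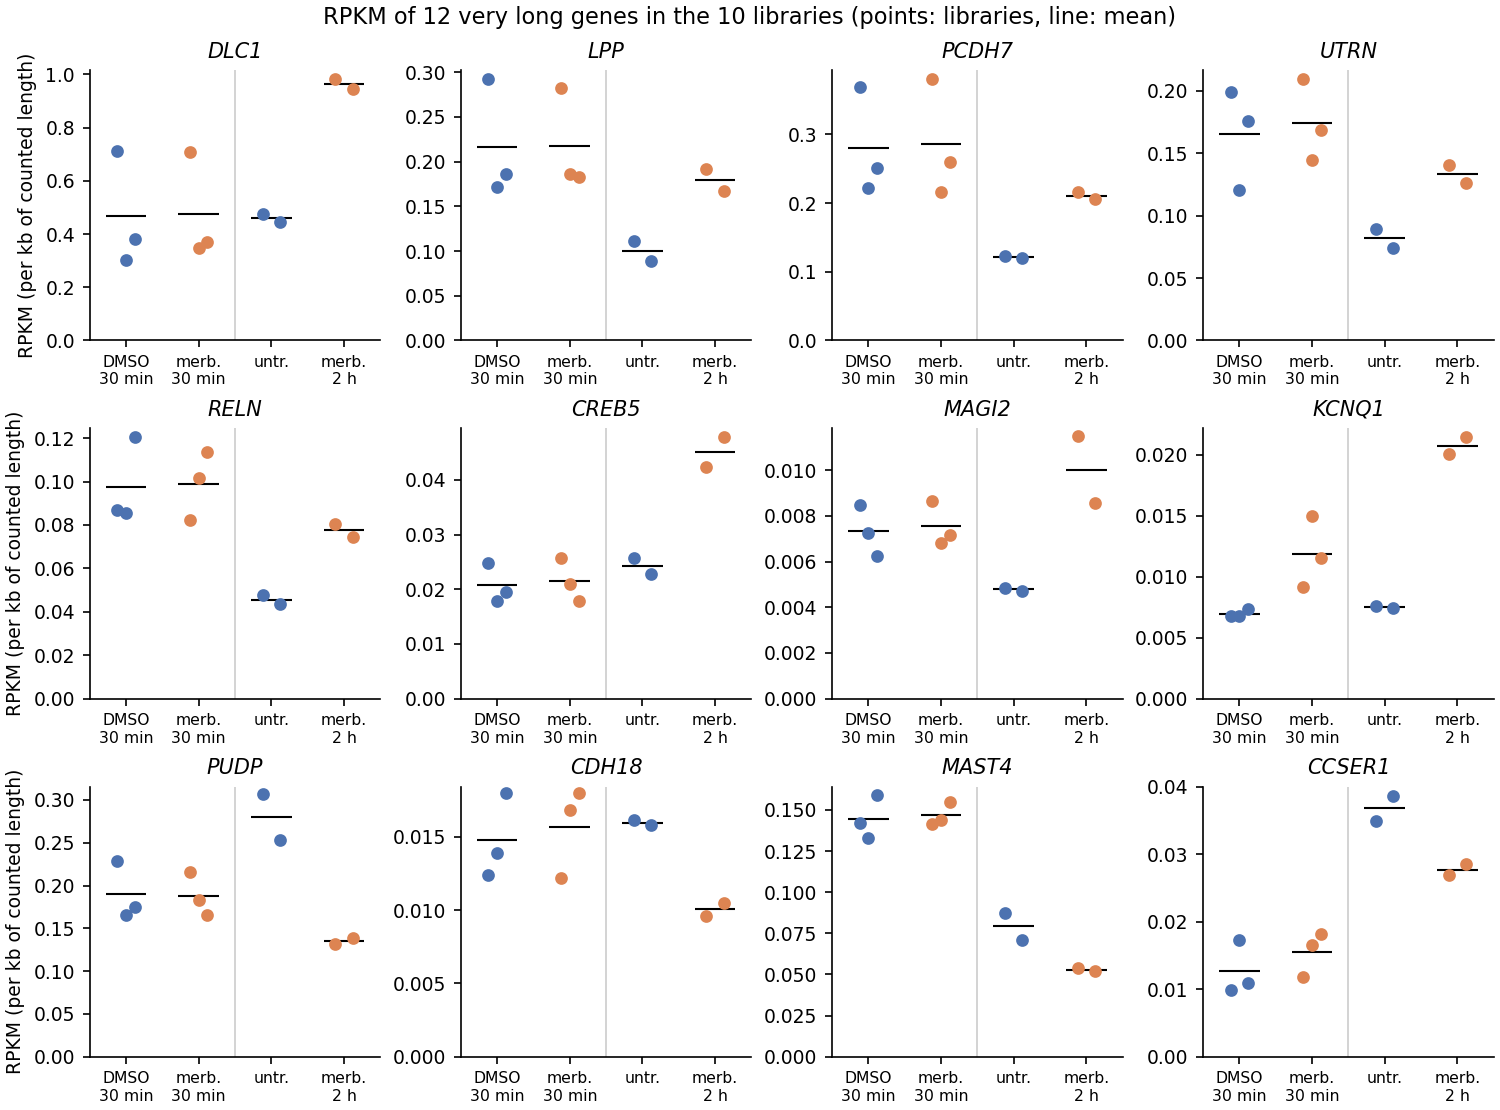
RPKM of 12 very long genes in each of the 10 libraries (points) with the group mean (line), for DMSO and merbarone at 30 min and for untreated cells and merbarone at 2 h; each panel has its own scale, starting at 0. The 8 genes from DLC1 to KCNQ1 have both 2 h libraries above both untreated libraries, and PUDP, CDH18, MAST4 and CCSER1 have both below.

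Among 41 genes of the cytoskeleton, cell polarity and scaffolds, 13 rose at 2 h (31.7%, background 7.13%) and none fell (background 5.13%), with a median log2 fold change of 0.30. After quantile normalization 8 rose (background 6.31%), none fell (background 5.55%) and the median was 0.10. The same backgrounds hold for the lists that follow. Of all 398 very long genes, from which the lists were drawn, 13.8% rose and 1.76% fell. Rises were called in 4.08% of very long genes with a mean of 10 to 50 reads and in 17.8% with 1000 or more. The median of the mean reads was 1197 in the cytoskeletal list and 896 in the matrix list, against 434 over all very long genes. LPP, a zyxin-related protein of focal adhesions (chr3:187871072-188608460, plus strand), had 0.112 and 0.0892 RPKM untreated and 0.192 and 0.167 after merbarone, without overlap (log2 0.85 ± 0.12, adjusted p = 0.000224 in limma). MAGI2, a scaffold of cell junctions (chr7:77646372-79082983, minus strand), had 0.00486 and 0.00471 RPKM untreated and 0.0115 and 0.00854 after merbarone, without overlap (log2 1.05 ± 0.19, adjusted p = 0.00179). UTRN, the autosomal relative of dystrophin, went from 0.0897 and 0.0741 to 0.141 and 0.127 RPKM (log2 0.71 ± 0.13). SYNE1, which ties the nuclear envelope to actin, went from 0.0893 and 0.0925 to 0.144 and 0.134 RPKM (log2 0.61 ± 0.12). In both, the lower treated library exceeded the higher control. The polarity gene PARD3B (0.69), the formin genes FMN1 (0.87) and DIAPH2 (0.54), and DOCK1 (0.33), an activator of Rac, rose as well. So did MYO16, TANC2 and PALLD, of which PALLD overlaps a gene that also rose, as given below. The giant crosslinkers MACF1 and DST, which tie actin to other filaments, rose by 0.31 and 0.39. MACF1 read 0.878 and 0.829 RPKM untreated and 1.03 and 1.08 after merbarone.

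Of 20 genes of the extracellular matrix and heparan sulphate, 6 rose (30%, background 7.13%) and none fell, with a median of 0.28 (after quantile normalization 4 rose and the median was 0.15). HMCN1, a large matrix protein gene (chr1:185703523-186160081, plus strand), read 0.0179 and 0.0209 RPKM untreated and 0.0384 and 0.0348 after merbarone, without overlap (log2 0.92 ± 0.17, adjusted p = 0.0023 in limma). RELN, which codes for a secreted glycoprotein (chr7:103111828-103630105, minus strand), read 0.0475 and 0.0436 untreated and 0.0807 and 0.0745 after merbarone, again without overlap (log2 0.77 ± 0.13, adjusted p = 0.00114). The microfibril genes FBN2 (0.57), LTBP1 (0.36) and THSD4 (0.46) and the glypican gene GPC6 (0.45) made up the rest. LTBP1, which holds latent TGF-beta in the matrix, lay close to the threshold (adjusted p = 0.0497).

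Of 36 genes of transcription and chromatin, 7 rose (19.4%, background 7.13%) and none fell (median 0.13). After quantile normalization 2 rose (background 6.31%) and 5 fell (background 5.55%), with a median of -0.04. CREB5, a leucine-zipper factor (chr7:28338940-28865511, plus strand), read 0.0256 and 0.0229 RPKM untreated and 0.0424 and 0.0479 after merbarone, without overlap (log2 0.90 ± 0.16, adjusted p = 0.00116 in limma). GLIS3, a zinc-finger factor, read 0.0475 and 0.0429 untreated and 0.0726 and 0.0725 after merbarone (log2 0.68 ± 0.13). RUNX1 (0.50), FOXP2 (0.62), AUTS2 (0.67), ZBTB20 (0.95) and RBMS3 (0.61) were the other genes that rose. ZBTB20, a zinc-finger repressor, had the lowest level of these, with 0.00315 and 0.00227 RPKM untreated and 0.00505 and 0.00531 after merbarone.

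In membrane trafficking and autophagy, 6 of 27 genes rose (22.2%, background 7.13%) and 1 fell (median 0.16, and -0.06 after quantile normalization with 3 and 2). The gene that fell was NBEA, whose direction reversed without the reads of a gene inside it, as given below. RIMS1 and RIMS2, scaffolds of the presynaptic release site, rose by 0.75 and 0.82. VPS13B, a lipid transfer protein, rose by 0.69 and overlaps another gene, as given below. ERC2 had only 8 and 8 reads untreated and 27 and 19 after merbarone, a ratio of 2.72 at equal depth (95% interval 1.51 to 5.15, counting error only). Of 34 signalling enzymes 2 rose (5.88%, background 7.13%) and 1 fell (2.94%, background 5.13%), shares no higher than the background, with a median of 0.13 that was -0.13 after quantile normalization. The rises were those of the phospholipase gene PLCB4 (0.44) and the receptor phosphatase gene PTPRK (0.41). ERBB4, a receptor tyrosine kinase, did not pass (0.43, adjusted p = 0.164).

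Of 55 adhesion and guidance receptors, 5 rose (9.09%, near the background of 7.13%) and 1 fell (1.82%, background 5.13%), with a median of 0.08 (-0.15 after quantile normalization, with 2 and 5). PCDH7, a protocadherin gene (chr4:30721991-31148427, plus strand), read 0.123 and 0.120 RPKM untreated and 0.216 and 0.205 after merbarone, without overlap (log2 0.80 ± 0.11, adjusted p = 0.000158 in limma). CDH23 also rose (0.50), but the gene VSIR inside it on the other strand held 96.3% of its reads. The others were NRG1 (0.56), a ligand of ERBB receptors, and PTPRK and GPC6, which also stand in other lists. Among 26 genes of fragile sites 4 rose (AUTS2, DIAPH2, LPP and MAGI2; 15.4%, background 7.13%) and 2 fell (CCSER1 and NBEA; 7.69%, background 5.13%), with a median of 0.12 that was -0.13 after quantile normalization. The fall of NBEA did not hold with the reads of a gene inside it taken off, as given below. The 190 genes in no list had a median of 0.13, with 18 higher (9.47%, background 7.13%) and 3 lower (1.58%, background 5.13%).

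**Figure D4:**
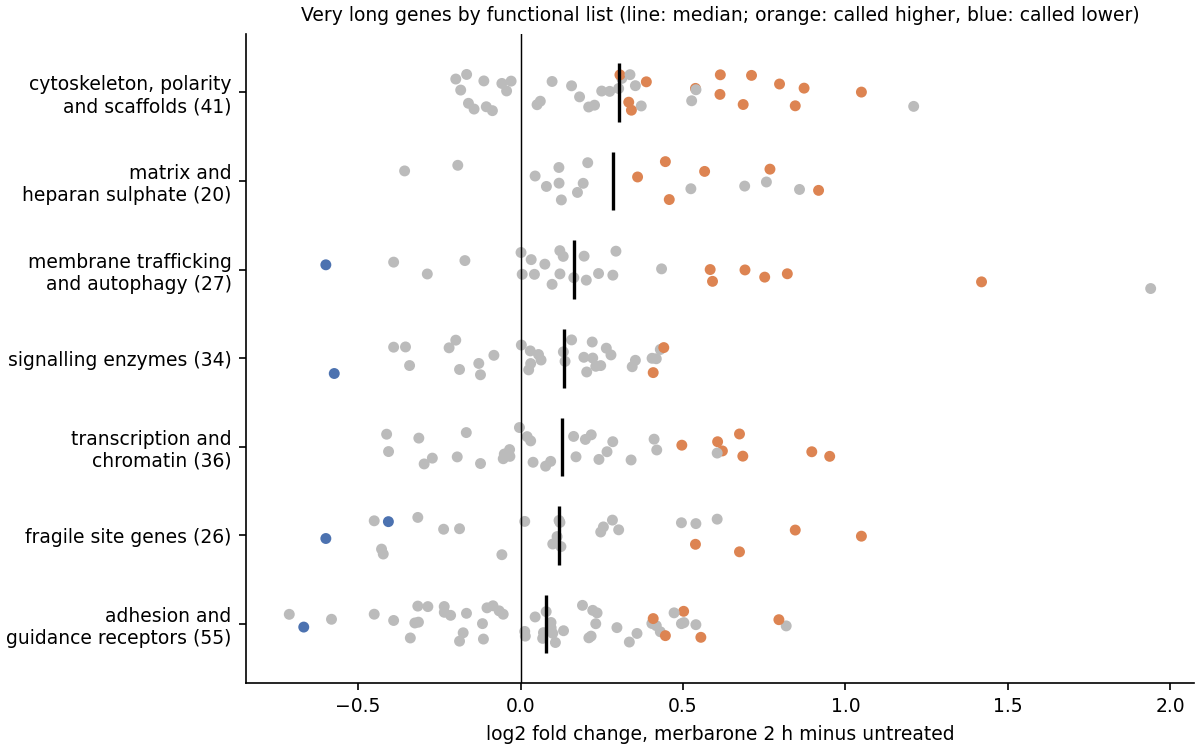
Log2 fold change at 2 h of the very long genes in each of 7 functional lists (points, jittered vertically, with the number of genes in brackets), with the list's median (line), called rises in orange and called falls in blue. The cytoskeletal list (median 0.30) and the matrix list (median 0.28) have 13 and 6 orange points and no blue one, and both medians stay above 0 after quantile normalization (0.10 and 0.15), unlike those of the other lists; a gene may stand in more than 1 list.

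Several of the largest changes rested on few reads. RASGEF1B, a Ras exchange factor gene, had 1 and 1 reads untreated and 17 and 12 after merbarone, a ratio of 13.7 at equal depth with a 95% interval of 3.47 to 119 (counting error only). CADPS, a factor of vesicle release, had 19 and 16 reads untreated and 43 and 48 after merbarone (ratio 2.46, interval 1.65 to 3.74). PHACTR1, which binds actin and protein phosphatase, had 13 and 12 reads untreated and 31 and 43 after merbarone (ratio 2.80, interval 1.76 to 4.60). In these 3 genes both treated libraries lay above both controls. UNC13C, with 3 and 2 reads untreated and 11 and 9 after merbarone, was not called (adjusted p = 0.0543), nor were EYS (0.86), FAT3 (0.82) and MTUS2 (1.21).

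The 7 genes that fell at 2 h were PUDP, ANKS1B, SLC35F1, CDH18, NBEA, MAST4 and CCSER1. CDH18, a cadherin gene (chr5:19471405-20575982, minus strand), read 0.0161 and 0.0158 RPKM untreated and 0.0096 and 0.0105 after merbarone, without overlap (log2 -0.67 ± 0.16, adjusted p = 0.013 in limma). MAST4, a kinase of the microtubule-associated family (chr5:65892208-66465421, plus strand), read 0.0874 and 0.0710 untreated and 0.0537 and 0.0522 after merbarone, without overlap (log2 -0.57 ± 0.14, adjusted p = 0.011). SLC35F1, a solute carrier gene, had 125 and 139 reads untreated and 83 and 61 after merbarone (log2 -0.97 ± 0.21 on RPKM). These 3 genes overlap no other gene of the tables, and genes outside the tables were not examined. CCSER1 fell by 0.41 (adjusted p = 0.0381), from 0.0350 and 0.0386 RPKM to 0.0269 and 0.0286. PUDP, a pseudouridine phosphatase gene, fell by 1.04 ± 0.16 on the log2 scale, from 0.307 and 0.253 to 0.132 and 0.139 RPKM, but its counted length was 99271 bp.

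Nested genes were compared by their reads, over pairs whose inner gene had 500 or more reads in the 10 libraries together. Among 167 pairs on opposite strands, the inner gene never had more reads than the outer one in any library, and among 339 pairs on the same strand it did in 1. In all, 122 of the very long genes overlap another gene of the tables, 35 contain one, and in 14 the contained genes held over 10% of the reads. The fall of NBEA, a vesicle trafficking scaffold, turned on such a gene. NBEA read 0.165 and 0.172 RPKM untreated and 0.112 and 0.111 after merbarone, a log2 fold change of -0.60 ± 0.11 (adjusted p = 0.00133 in limma). MAB21L1, which lies inside NBEA on the other strand, went from 30.5 and 32.5 to 13.9 and 14.4 RPKM (log2 -1.16). With the reads of MAB21L1 taken off, NBEA had 429 and 375 reads untreated and 569 and 509 after merbarone, and its log2 fold change was 0.34, which was not called. The direction of NBEA was thus reversed without its inner gene.

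Overlap also touched ANKS1B, an adaptor protein gene (chr12:99120235-100378714, minus strand), which read 0.0269 and 0.0241 RPKM untreated and 0.0135 and 0.0115 after merbarone (log2 -1.03 ± 0.15, adjusted p = 0.000196 in limma). It shares 8977 bp with the end of APAF1 on the other strand, which went from 0.745 and 0.616 to 0.425 and 0.369 RPKM (log2 -0.77). How much of the fall of ANKS1B lay in these bases was not tested. SLC25A21 rose by 1.03 on the log2 scale and overlaps its antisense gene SLC25A21-AS1 by 719 bp, which rose by 2.02. PALLD rose by 0.34 and overlaps CBR4 on the other strand by 64688 bp. CBR4 also rose by 0.34, and its reads were 103% of those of PALLD. VPS13B overlaps COX6C (94.8% of its reads) and PHACTR1 overlaps TBC1D7 (867%), and neither COX6C nor TBC1D7 was called. The part of the shared bases in these rises was not tested. Of the 62 called genes, 10 overlap a gene with over 10% of their own reads, and 38 of the 55 that rose overlap none. Of the 276 very long genes that overlap none, 41 were called at 2 h (14.9%, background 12.3%).

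The bases before a listed start of 5 genes are shown, so that genes that moved in either direction can be compared. These windows and the gene positions given above are on different builds. Whether a window lies at the outer end of the gene's span or inside it was not examined. They have the 3 largest rises and 2 largest falls among called genes with a promoter sequence used here, a mean of 100 or more reads, a counted length of 400000 bp or more and no overlapping gene, and were chosen after their values were seen. The sequences are the 250 bases before the first start that RefSeq lists for the gene (GRCh38.p14), 5′ to 3′ on the gene's strand, with CG dinucleotides in capitals. They lie at chr7:79453668-79453917 (MAGI2, minus strand), chr3:114900626-114900875 (ZBTB20, minus strand), chr7:28412268-28412517 (CREB5, plus strand), chr5:20575714-20575963 (CDH18, minus strand) and chr5:66596143-66596392 (MAST4, plus strand).
MAGI2: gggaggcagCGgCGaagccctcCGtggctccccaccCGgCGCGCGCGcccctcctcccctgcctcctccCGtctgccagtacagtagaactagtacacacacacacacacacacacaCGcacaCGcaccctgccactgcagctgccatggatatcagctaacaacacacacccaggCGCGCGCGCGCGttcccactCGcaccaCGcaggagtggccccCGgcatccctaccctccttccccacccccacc
ZBTB20: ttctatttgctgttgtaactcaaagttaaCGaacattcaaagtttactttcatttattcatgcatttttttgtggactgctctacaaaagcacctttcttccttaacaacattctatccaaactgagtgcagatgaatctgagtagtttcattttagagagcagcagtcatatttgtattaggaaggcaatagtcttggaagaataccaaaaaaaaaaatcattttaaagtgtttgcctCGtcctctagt
CREB5: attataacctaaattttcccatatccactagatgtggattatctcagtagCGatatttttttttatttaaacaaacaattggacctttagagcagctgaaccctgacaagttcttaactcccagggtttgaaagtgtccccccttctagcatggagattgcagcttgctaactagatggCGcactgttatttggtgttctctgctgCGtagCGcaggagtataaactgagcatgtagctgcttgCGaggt
CDH18: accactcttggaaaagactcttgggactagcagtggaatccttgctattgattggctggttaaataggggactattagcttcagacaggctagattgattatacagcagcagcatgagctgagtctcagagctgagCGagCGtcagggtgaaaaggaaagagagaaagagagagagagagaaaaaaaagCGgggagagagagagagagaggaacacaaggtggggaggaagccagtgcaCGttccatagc
MAST4: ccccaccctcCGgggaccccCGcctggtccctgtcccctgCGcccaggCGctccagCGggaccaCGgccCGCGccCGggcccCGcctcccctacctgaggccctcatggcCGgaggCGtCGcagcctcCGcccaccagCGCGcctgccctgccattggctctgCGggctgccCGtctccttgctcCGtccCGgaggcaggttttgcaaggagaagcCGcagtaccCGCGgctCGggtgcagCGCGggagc
These windows hold 20, 2, 5, 4 and 26 CG dinucleotides, so genes rich and poor in CG stand among both the rises and the falls. The CREB5 window holds TATAAA, which begins 31 bases before the listed start.

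A promoter of 300 bases, 250 before and 50 after the start, was found for 327 of the 398 very long genes. TATAAA on either strand occurred in 9 of 45 promoters of genes that rose (20%), in 1 of 6 of genes that fell (16.7%), in 6.73% of those of all very long genes, in 5.92% of those of all genes tested and in 12% of all promoters of the table. The AP-1 motif TGACTCA or TGAGTCA, which are the same motif on opposite strands, occurred in 8.89% of the promoters of genes that rose, 2.45% of all very long genes and 3.12% of all genes tested. For TGACGTCA the shares were 6.67%, 2.14% and 3.15%, and for CACGTG 13.3%, 7.34% and 9.75%. The median number of CG dinucleotides was 23 in genes that rose and in all very long genes, and 26 in all genes tested. These matches describe letters and are not sites, and the first start listed need not be the one in use.

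The change at 2 h was then compared with that at 30 min, a contrast in which time, kind of control and experiment cannot be told apart. Of the 398 very long genes 1 was called (background 0.532%). It was ANKS1B, with -1.03 at 2 h and 0.04 at 30 min, a difference of -1.07 ± 0.19 (adjusted p = 0.045 in limma). This call lay at the threshold and was lost with voom (adjusted p = 0.0928), among other settings, over which its adjusted p ranged from 7.25e-05 to 0.248. The next lowest p-values belonged to NBEA (-0.70, adjusted p = 0.0631), TRAPPC9 (0.67, 0.072), UNC13C (1.97, 0.0919) and PUDP (-1.03, 0.0928). With the replicate number as a block, 78 were called (background 16.7%), of which 64 were higher at 2 h (background 8.74%) and 14 lower (background 7.99%). At 30 min the replicate numbers paired the libraries, and at 2 h they did not. The median difference over the very long genes was 0.15 (all genes 0.01), and its sign depended on the scaling, with 0.09 after median scaling (all genes -0.05) and -0.05 after quantile normalization (all genes -0.03).

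**Figure D5:**
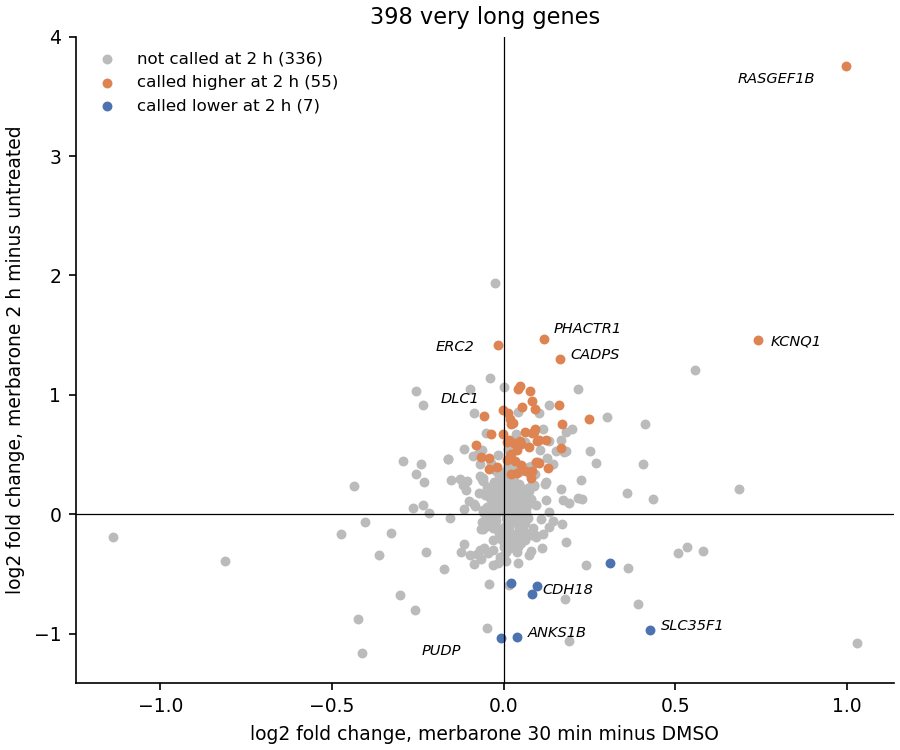
Log2 fold change of each of the 398 very long genes at 30 min (horizontal axis) and 2 h (vertical axis), with genes called higher at 2 h in orange, called lower in blue and others in grey. The orange and blue points lie near 0 on the horizontal axis apart from a few genes such as RASGEF1B (1.00) and KCNQ1 (0.74), and no gene is called at 30 min.

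Of the 55 genes that rose at 2 h, 45 lay above 0 at 30 min, with a median of 0.05 there and a range from -0.08 to 1.00. Of all 398 very long genes 244 lay above 0 at 30 min (61.3%, and 48.5% of all genes tested). The plot of both time points shows the same genes spread along the 2 h axis and not along the 30 min axis. Of the 7 that fell, 1 lay below 0 at 30 min.

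The genes nearest the span threshold had 2 h values of either sign. Just inside lay BMPR1B (400494 bp), TRPS1 (401176 bp) and FBN2 (401278 bp), with 2 h log2 fold changes of 0.14, -0.32 and 0.57. Just outside lay DTNA (398554 bp), LDB2 (397138 bp) and NTRK3 (397041 bp), with -0.34, -0.04 and 0.69.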

How the data were processed

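The authors deposited 1 table per library with RPKM values, per the file headers, not log transformed. The submitters' processing notes name Bowtie 1.2.0, deepTools 2.4.1, DESeq2, edgeR and the build GRCh37 (hg19), without roles. The counting is not given in the sources used here. Within a gene the values step by whole reads, and whole reads were recovered for 17680 of 17680 genes with a value above 0 in any library (tolerance 0.0001 reads), and their sums lay within 0.027% of the depth implied. The length the RPKM was divided by lay within 1% of the gene's span for 75.2% of 17234 genes and of its exon length for 1.6%.

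Log2(RPKM), without a pseudocount, was tested in limma 3.58.1 (R 4.3.3; lmFit and eBayes) on the 14477 genes above 0 in all 10 libraries, with the prior variance trended on the mean log2 of recovered reads, two-sided, with Benjamini-Hochberg adjustment at 0.05 over all genes. Each experiment was fitted alone, and the difference of effects on all 10 libraries. The count tools named above were not run, since the deposited unit is RPKM; voom on the recovered reads was an alternative. Same-numbered libraries deviated together at 30 min (r = 0.689, 0.472 and 0.430 across genes), which pairs them, and not at 2 h (0.0273). The scripts were tested on simulated data. Intervals are 95%.

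The genes and the lists were chosen with earlier results of these data known. Genes are named by rule: called genes with the 10 largest rises and falls, the 5 lowest p-values where fewer than 5 were called, the 5 longest, the 5 of highest exon level, 3 on each side of the span threshold, and 3 per functional list; other called genes were named after their values were seen. Exon lengths, spans and positions come from GENCODE release 44 on GRCh37, and promoters from RefSeq GRCh38.p14. Summaries were made in pandas 2.3.3 and NumPy 2.4.6 under Python 3.11.15, intervals of ratios in SciPy 1.17.1, and figures in matplotlib 3.10.9.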

Additional observations from a re-analysis of the deposited data

Results flagged for a closer look

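In the fit without the replicate block, ANKS1B was the 1 very long gene whose change differed between the experiments in the test of the difference itself. With the block, which pairs the 30 min libraries, 78 were called (19.6%, background 16.7%), ANKS1B among them. The effect at 2 h minus that at 30 min was -1.07 ± 0.19 (log2, adjusted p = 0.045 in limma), with -1.03 at 2 h and 0.04 at 30 min. The call was lost with a pseudocount of 0.01 (adjusted p = 0.0841), no trend (0.0826), a trend on RPKM (0.165), voom (0.0928) and with any 1 of the 4 libraries of the 2 h experiment left out (0.0913 to 0.248). Its RPKM was 0.0194, 0.0251 and 0.0215 in DMSO, 0.0212, 0.0252 and 0.0213 after merbarone for 30 min, 0.0269 and 0.0241 in untreated cells and 0.0135 and 0.0115 after merbarone for 2 h. The overlapping gene APAF1 also fell at 2 h (-0.77), and its part in the difference was not tested.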

How the results depend on the processing

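At 30 min no very long gene was called under any of the alternatives run; the median log2 fold change was -0.0011 to 0.032 with 1 library left out. At 2 h (62 called) the count is given with its share and that of all genes in the same fit: 20 with a pseudocount of 0.01 (5.03%, 7.09%), 0 with that and no filter (all genes 0.758%), 5 with no trend (1.26%, 0.857%), 2 with a trend on RPKM (0.503%, 4.57%), 23 with all 10 libraries in 1 fit (5.78%, 5.60%), 97 with the replicate block (24.4%, 23.4%), 106 with GC content corrected (spline, 4 degrees of freedom; 26.6%, 24.5%), 126 with both (31.7%, 31.2%), 40 of 249 at spans of 500000 bp or more (16.1%, 12.3%), 41 of 276 without overlapping genes (14.9%, 12.3%), and 10 to 129 with 1 library left out (a lone library is then assumed to vary like the other group). The 2 h median was -0.0596 after quantile normalization and 0.093 to 0.22 with 1 library left out. For the difference (1 called) the count was 0 with the pseudocount, the RPKM trend, voom or no overlapping genes, 2 with median scaling or no trend, 3 after quantile normalization, 78 with the replicate block (19.6%, all genes 16.7%), 104 with the block and GC correction (26.1%, 23.3%), 68 with voom and the block (17.1%, 15.2%), and 0 to 2 with 1 library left out. The causes were not tested. The fits with contained genes' reads taken off and with voom and the block were chosen after seeing the data.

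These directions turned: NBEA without its contained gene (0.34 at 2 h, 0.30 in the difference), BMPR1B after quantile normalization (-0.17), ENSG00000250349 without contained genes (0.12) and ENSG00000255872 with GC correction (0.0098, and 0.0098 with the block). With 1 library left out, the 2 h value ranged from -0.15 to 0.42 for BMPR1B, -0.24 to 0.071 for CSMD1, -0.26 to 0.15 for DLG2, -0.19 to 0.030 for ENSG00000250349, -0.022 to 0.014 for ENSG00000255872, -1.68 to 1.29 for FSTL5, -0.12 to 0.95 for PTPRD and -0.020 to 0.18 for SPOCK1. Of 859 values of named genes at 2 h under an alternative, 668 kept direction and side of the threshold, 154 lost the call, 21 gained it and 16 turned. Genes of few reads limit the precision: 20 very long genes had a mean under 10 reads over all 10 libraries. In the libraries of the 2 h experiment alone, only 355 of the 398 very long genes had a mean of at least 10 reads, and 294 of at least 50.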
